A study of Mus musculus with 12 samples.

Results

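Arginase 1 and 9 further genes used as readouts of alternative macrophage activation were followed in macrophages grown from mouse bone marrow. The 10 genes were picked by symbol (Arg1, Mrc1, Chil3, Retnla, Clec10a, Mgl2, Il4ra, Tgm2, Stat6 and Nos2), and all 10 were among the 23438 genes of the deposited table. The 5 KO libraries came from Baf60a KO macrophages and the 7 WT libraries from WT macrophages, 12 in all. Both genotypes were bone marrow derived macrophages of C57 mice with atherosclerosis, collected on day 7 of differentiation. Baf60a is the product of Smarcd1, a subunit of the SWI/SNF complex that moves nucleosomes. The labels name no added cytokine, no age, no way by which atherosclerosis was brought about and no Cre driver, and do not say whether libraries came from separate mice, so a p-value here reflects how these particular libraries varied, and some of that may be technical. Smarcd1 was at 5.99 to 7.58 TPM in the KO libraries, against 11.6 to 15.6 TPM in the WT libraries, and limma called it lower in KO with 12 libraries (adjusted p of 7.44e-04).

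Interleukin 4 and interleukin 13 bind receptors that share the Il4ra chain. The receptor activates the transcription factor Stat6, which in mouse macrophages raises Arg1, Retnla, Chil3, Mrc1 and the lectin genes Clec10a and Mgl2. Arginase 1 turns arginine into ornithine and urea, and competes for arginine with Nos2, the inducible nitric oxide synthase of classically activated macrophages. Arg1 is also raised by signals that do not pass through Stat6.

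The unit is named in no header or label. Levels are taken as TPM, a share of transcripts corrected for gene length, from the use of Salmon and the column totals. The comparison of levels between genes rests on that reading, and the read depth under each value is unknown. A test was run for the 11152 genes that had 1 TPM or more in at least 5 libraries, and 7 of the 10 genes were among them. Retnla, Mgl2 and Nos2 did not reach that level and are given as values only. Macrophage markers were present in both genotypes, with all 10 listed markers at 1 TPM or more in every library. Without the lysozyme gene Lyz2, which alone was at 4932 to 5853 TPM in KO, 5232 to 21547 TPM in WT replicates 2, 3 and 4 and 14635 to 16912 TPM in WT replicates 1, 5, 6 and 7, the other 9 markers summed to 6023 to 6174 TPM in KO, 2090 to 3488 TPM in WT replicates 2, 3 and 4 and 5792 to 7208 TPM in WT replicates 1, 5, 6 and 7. WT replicates 2, 3 and 4 stood apart from the other 9 libraries. Their summed level of 10 fibroblast and smooth muscle markers was 3909 to 9804 TPM, compared with 191 to 606 TPM for KO and 113 to 426 TPM for the remaining 4 WT libraries. Their summed level of 10 neutrophil markers was 79.3 to 109 TPM, compared with 1005 to 6263 TPM for KO and 1195 to 1547 TPM for the remaining 4 WT libraries. Of 10 alveolar macrophage markers, a list that holds Chil3, Marco alone was high in WT replicates 2, 3 and 4. The 8 markers other than Marco and Chil3 summed to 11.2 to 24.6 TPM in KO, 6.05 to 10.6 TPM in WT replicates 2, 3 and 4 and 15.5 to 17.3 TPM in the remaining WT libraries. Markers of dendritic cells summed to at most 51.6 TPM in any library, and those of basophils and mast cells, eosinophils and lymphocytes to less. For the 7 tested genes and the gene lists below, each comparison of genotypes is therefore given with all 12 libraries and with the 9 libraries left without these 3. In bulk RNA, fewer cells of a type and less RNA per cell cannot be told apart.

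Arg1 was the most abundant of the 10 transcripts in the other 4 WT libraries and was lower in KO than there. It was lowest in WT replicates 2, 3 and 4, though above 1 TPM in each. Its level was 96.3, 95.6, 92.2, 95.4 and 315 TPM in KO replicates 1 to 5. It was 4.69, 8.64 and 2.28 TPM in WT replicates 2, 3 and 4, while WT replicates 1, 5, 6 and 7 had 492, 755, 388 and 499 TPM. Every KO library thus lay below those 4 WT libraries and above WT replicates 2, 3 and 4, and 4 of the 5 KO libraries lay close together with replicate 5 far above them. Arg1 (ENSMUSG00000019987) spans 24915221 to 24927484 on the minus strand of chromosome 10 in mm10.

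The direction of the Arg1 difference between genotypes turned on WT replicates 2, 3 and 4. With 9 libraries Arg1 averaged 139 ± 98.5 TPM in KO (SD, n = 5) and 533 ± 156 TPM in WT (SD, n = 4). On the scale of log2(TPM + 1) the fold change came to -2.09 ± 0.366 (SE), and limma gave an adjusted p of 0.0232. An exact two-sided permutation test of genotype gave p = 0.0159, where 126 arrangements were possible. WT replicates 2, 3 and 4, left out here, were set apart by measured values and held the least Arg1 of all 12 libraries. Leaving them out raises the WT mean, so neither of these p-values is free of that choice. Of the macrophage markers given above, Lyz2 was also lower in KO. It averaged 5406 ± 366 TPM in KO (SD, n = 5) and 15817 ± 956 TPM in these 4 WT libraries (SD, n = 4). For Lyz2, limma gave 5.68e-06 as the adjusted p with 9 libraries. The labels name no Cre driver, and whether Lyz2 and Arg1 fell for a shared reason was not tested. The sum of the other 9 markers overlapped between KO and these 4 WT libraries. Among those 9, Cd14 was called in the opposite direction with 9 libraries (limma adjusted p of 0.0458) but not with 12 (0.231). It was at 516 ± 7.59 TPM in KO (SD, n = 5), against 368 ± 77.8 TPM in these 4 WT libraries (SD, n = 4). The 9-library call for Cd14 was lost in 8 of the 9 fits that left out a library and kept without WT replicate 6. By size, the Arg1 change was the second most negative log2 fold change of the 11152 genes tested with 9 libraries. All 12 libraries together gave a log2 fold change of 0.70 ± 1.49 (SE), a limma adjusted p of 0.764 and an exact permutation p of 0.669. The call with 9 libraries was thin. It held when KO replicate 1, KO replicate 5 or WT replicate 6 was left out, and was lost when any of the other 6 libraries was left out (limma adjusted p of 0.0597 to 0.0733), while the log2 fold change stayed between -2.44 and -1.91. It was also lost without the filter on low values (limma adjusted p of 0.0635).

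**Figure D1:**
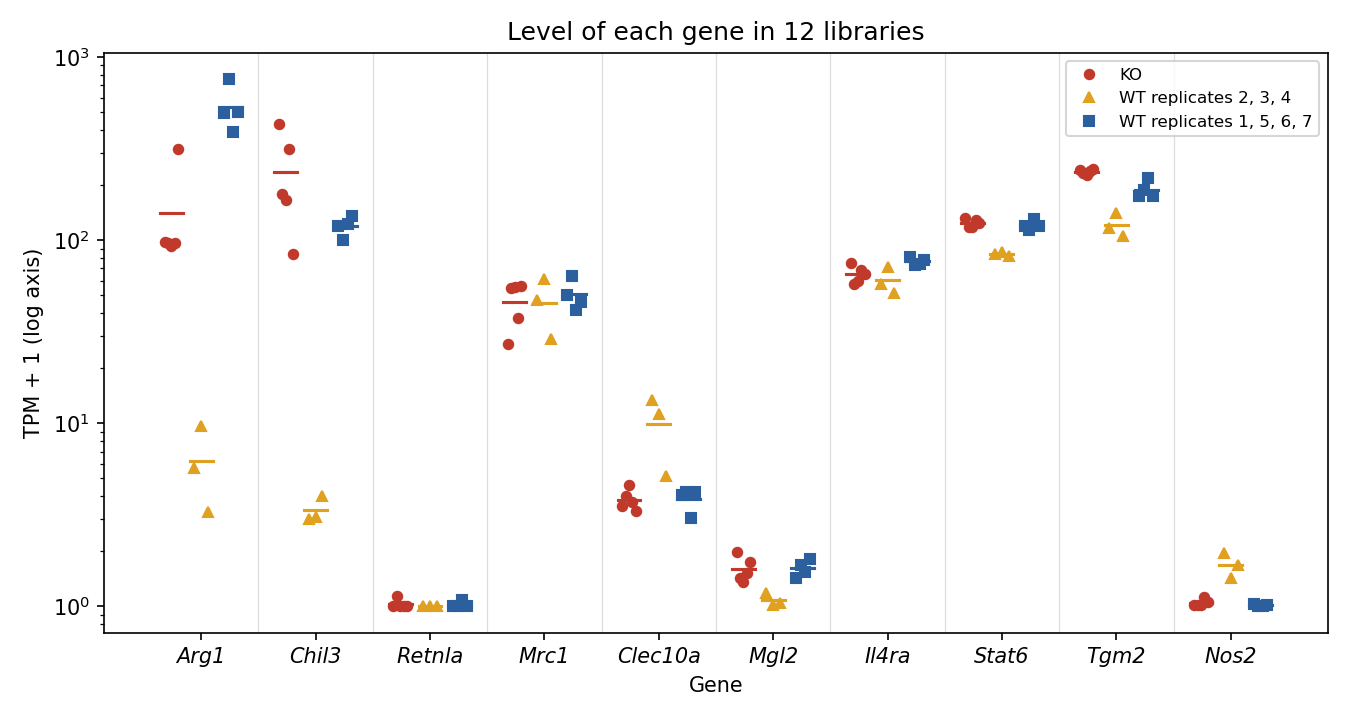
TPM + 1 on a log axis for the 10 genes. Each point is a library and each bar a group mean: circles are KO, triangles WT replicates 2, 3 and 4, and squares WT replicates 1, 5, 6 and 7. Arg1 and Chil3 are lowest in the triangles, at 1.99 to 8.64 TPM. Mrc1, Il4ra, Stat6 and Tgm2 vary far less between libraries, and Tgm2 is higher in every KO library than in every WT library.

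None of the other 6 tested readouts was called lower in KO as fitted here. Il4ra was called lower when libraries were weighted by how closely their own values followed the fit. With 9 libraries 1 of the 7 tested genes fell (Arg1), 1 rose (Tgm2) and 5 did not pass the test, against 0.717% lower and 1.61% higher among all genes tested (80 and 180 genes, 2.33% together). Dividing each library by its median ratio turned the split of all genes to 133 lower and 73 higher, and Tgm2 was then no longer called (adjusted p of 0.0984 in limma). The median log2 fold change of the 7 genes was -0.02, beside 0.05 for all genes tested. With 12 libraries limma called 0 of the 7, against 0.126% of all genes (0.108% higher and 0.0179% lower), and 2 of the 7 had an unadjusted p under 0.05 (Chil3 and Tgm2), as did 17.5% of all genes. At that level there were 3 of the 7 with 9 libraries (Arg1, Tgm2 and Il4ra), beside 18.9% of all genes. Without regard to a test, every KO library lay above WT replicates 1, 5, 6 and 7 for 1 of the 7 genes (Tgm2) and below them for 1 (Arg1), against 7.09% and 2.08% of all genes. Set against all 7 WT libraries, KO lay wholly above for Tgm2 and wholly below for 0 of the 7, against 2.92% and 0.637% of all genes.

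**Figure D2:**
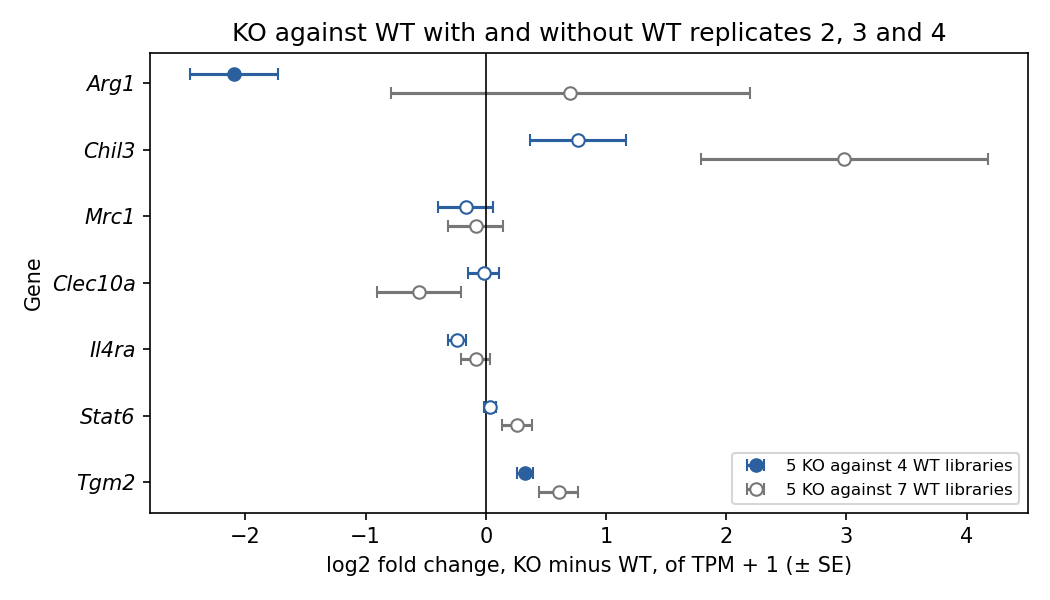
Log2 fold change of TPM + 1, KO minus WT, with its standard error, for the 7 tested genes. Blue points use 5 KO and 4 WT libraries, grey points 5 KO and 7 WT libraries, and filled points have a limma adjusted p under 0.05. Arg1 is at -2.09 with 4 WT libraries and at 0.70 with 7, and Tgm2 stays above 0 in both.

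Chil3 and Retnla are secreted proteins with strong responses to interleukin 4 in mouse macrophages, Chil3 being the chitinase-like protein Ym1 and Retnla the resistin-like molecule also called Fizz1. The 250 bases before the RefSeq start sites of both (GRCm38.p6) are shown because these genes were far apart in level although both are counted among Stat6 targets. The Chil3 window is chr3:106167565-106167814 on the minus strand and the Retnla window chr16:48842359-48842608 on the plus strand. Capitals mark matches to either of the palindromic letter patterns TTCNNNNGAA, the spacing preferred by Stat6, and TTCNNNGAA, the spacing of other Stat factors.
Chil3: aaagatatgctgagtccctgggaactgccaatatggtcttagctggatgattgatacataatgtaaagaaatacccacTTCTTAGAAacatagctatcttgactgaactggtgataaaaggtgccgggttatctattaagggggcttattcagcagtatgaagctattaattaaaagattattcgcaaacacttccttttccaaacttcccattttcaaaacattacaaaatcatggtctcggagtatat
Retnla: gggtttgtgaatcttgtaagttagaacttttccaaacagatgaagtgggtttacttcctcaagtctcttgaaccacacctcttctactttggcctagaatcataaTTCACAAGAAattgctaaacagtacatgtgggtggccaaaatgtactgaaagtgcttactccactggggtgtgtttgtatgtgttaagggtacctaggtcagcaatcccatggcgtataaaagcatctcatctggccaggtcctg
The Retnla window held the longer pattern, starting 145 bases before the start site, and the Chil3 window held the shorter one, starting 172 bases before it. Because each pattern equals its own reverse complement, a match counts for both strands, and the marked matches do not overlap. Of 32851 windows of this length before RefSeq start sites, 5.85% held TTCNNNNGAA and 7.02% held TTCNNNGAA. Windows were at hand for 6 of the 10 genes, and those of Mrc1, Mgl2, Il4ra and Stat6 held neither pattern. A match describes the letters and shows no binding.

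Retnla was listed at 0 in 10 of the 12 libraries, at 0.14 TPM in KO replicate 2 and at 0.08 TPM in WT replicate 6. Chil3 (ENSMUSG00000040809, chromosome 3, 106147554 to 106167564) was among the more abundant of the 10 genes in KO. It was at 430, 178, 165, 316 and 83.2 TPM in KO replicates 1 to 5. WT replicates 2, 3 and 4 held 1.99, 2.06 and 2.99 TPM, and WT replicates 1, 5, 6 and 7 held 119, 99.8, 122 and 135 TPM. The KO libraries reached from below to far above the other 4 WT libraries, so the genotypes overlapped. Its log2 fold change of 0.77 ± 0.40 (SE) with 9 libraries did not pass in limma (adjusted p of 0.336), nor did that of 2.98 ± 1.19 (SE) with 12 (adjusted p of 0.255). The near-identical neighbour Chil4 was listed at 0 to 0.03 TPM. These values do not show how reads that fit both genes were divided, so the Chil3 level keeps that uncertainty.

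Among the KO libraries, neutrophil genes and Chil3 ran in the same order. The summed level of the 10 neutrophil markers was 6263, 2107, 1917, 4378 and 1005 TPM in KO replicates 1 to 5, the same order as for Chil3. In WT replicates 1, 5, 6 and 7 the sums were 1308, 1235, 1195 and 1547 TPM, and there the orders differed, since replicate 6 had the lowest sum but the second highest Chil3. The lowest sums were those of WT replicates 2, 3 and 4, at 79.3, 86.4 and 109 TPM, with 2 of the 10 markers at 1 TPM or more in all 3 and 6 under 1 TPM in all 3. In KO, and likewise in WT replicates 1, 5, 6 and 7, 7 of the 10 markers were at 1 TPM or more in every library. The part of neutrophils in the Chil3 level was not tested. Arg1 did not follow these markers among the KO libraries: replicates 1 to 4 kept Arg1 between 92.2 and 96.3 TPM while their marker sums ran from 1917 to 6263 TPM, and replicate 5, with the lowest sum, held the most Arg1.

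**Figure D3:**
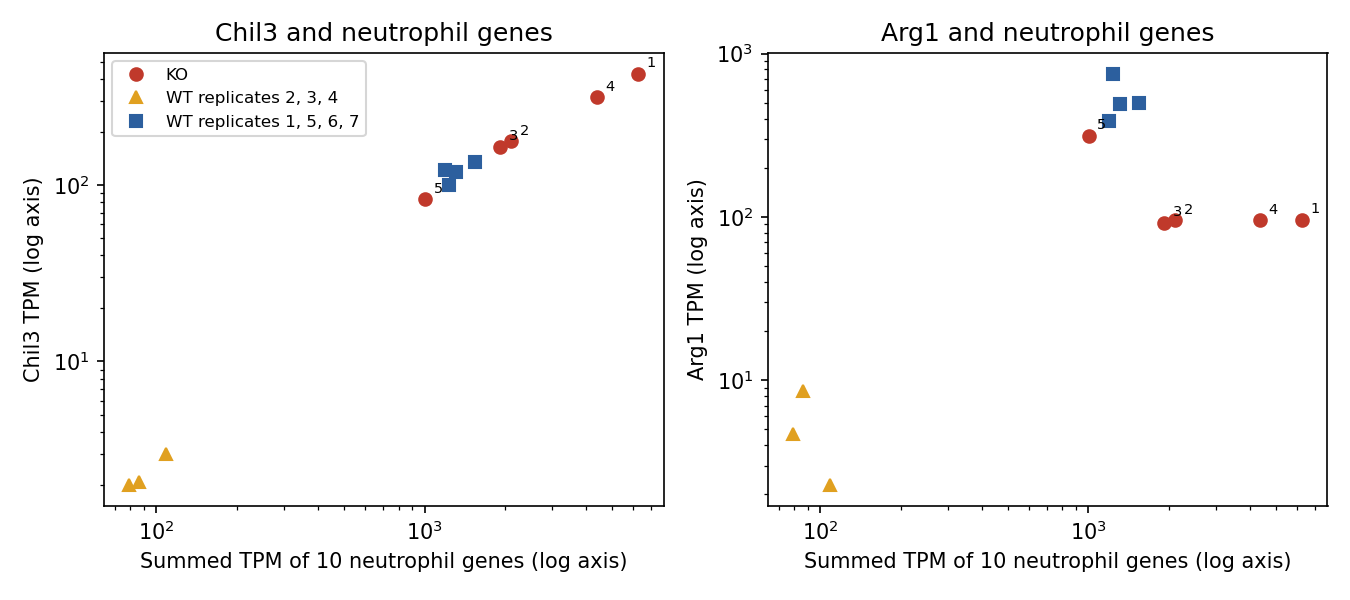
Chil3 TPM (left) and Arg1 TPM (right) against the summed TPM of 10 neutrophil markers, all on log axes. Points are libraries, with KO replicates numbered. Chil3 climbs with the sum over the KO libraries, 83.2 to 430 TPM, whereas Arg1 is level in KO replicates 1 to 4.

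Tgm2 (ENSMUSG00000037820, chromosome 2, 158116402 to 158146436) encodes transglutaminase 2, which cross-links proteins and is induced by interleukin 4 in both human and mouse macrophages. It was at 242, 230, 225, 236 and 242 TPM in KO replicates 1 to 5. WT replicates 2, 3 and 4 held 115, 140 and 105 TPM, and WT replicates 1, 5, 6 and 7 held 173, 187, 218 and 174 TPM. Every KO library lay above every WT library. Tgm2 rose by 0.33 ± 0.0653 (SE) on the log2 scale with 9 libraries (limma adjusted p of 0.0364). All 12 libraries gave 0.60 ± 0.163 (SE), which did not pass (limma adjusted p of 0.187). The 9-library call was lost in 8 of the 9 fits that left out a further library (limma adjusted p of 0.056 to 0.112) and held without WT replicate 6. It was also lost with no filter (0.074) and with a term for submission numbers (0.0596).

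Neither the receptor chain nor its transcription factor passed the test. Il4ra (ENSMUSG00000030748, chromosome 7, 125552120 to 125579474) was at 74.0, 56.2, 58.7, 67.8 and 64.1 TPM in KO replicates 1 to 5. WT replicates 2, 3 and 4 held 56.9, 70.4 and 50.6 TPM, and WT replicates 1, 5, 6 and 7 held 79.8, 72.2, 72.9 and 77.1 TPM. Only KO replicate 1 reached into the range of the other 4 WT libraries. Yet the log2 fold change of -0.24 ± 0.0767 (SE) with 9 libraries missed the threshold (limma adjusted p of 0.134). So did that of -0.08 ± 0.117 (SE) with 12 (limma adjusted p of 0.64). With libraries weighted by how closely their own values followed the fit, the 9-library change passed (limma adjusted p of 0.0469). Stat6 (ENSMUSG00000002147, chromosome 10, 127642986 to 127660957) was at 116 to 131 TPM in KO, at 80.7 to 85.3 TPM in WT replicates 2, 3 and 4 and at 112 to 129 TPM in the other 4 WT libraries. Its log2 fold change was 0.04 ± 0.051 (SE) with 9 libraries and 0.26 ± 0.125 (SE) with 12, with limma adjusted p of 0.745 and 0.295. The ligand gene Il4 was listed at 0 to 0.09 TPM in KO, at 0.48, 0.09 and 0.09 TPM in WT replicates 2, 3 and 4 and at 0 in WT replicates 1, 5, 6 and 7. Il13 was listed at 0 in 11 libraries and at 0.02 TPM in WT replicate 6.

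The surface lectins were of unequal level, and neither of those tested (Mrc1 and Clec10a) passed. Mrc1 (ENSMUSG00000026712, chromosome 2, 14229392 to 14332057), the mannose receptor CD206, was at 26.2, 53.8, 54.3, 36.4 and 55.0 TPM in KO replicates 1 to 5. WT replicates 2, 3 and 4 held 45.9, 60.1 and 27.8 TPM, and WT replicates 1, 5, 6 and 7 held 49.4, 63.0, 40.6 and 45.1 TPM. The 3 sets overlapped, and the 2 lowest KO values were those of replicates 1 and 4, which held the highest neutrophil sums. The log2 fold change was -0.17 ± 0.226 (SE) with 9 libraries and -0.08 ± 0.227 (SE) with 12, with limma adjusted p of 0.738 and 0.819. Clec10a and Mgl2 lie near each other on chromosome 11 (70156197 to 70170834 and 70130329 to 70137550) and encode closely related galactose-type lectins, so reads may be shared and the level of each is uncertain. Clec10a was at 2.30 to 3.57 TPM in KO, at 12.4, 10.3 and 4.16 TPM in WT replicates 2, 3 and 4 and at 2.05 to 3.22 TPM in the other 4 WT libraries. Its log2 fold change was -0.02 ± 0.128 (SE) with 9 libraries and -0.56 ± 0.348 (SE) with 12, with limma adjusted p of 0.962 and 0.348. Mgl2 stayed under 1 TPM in all 12 libraries, at 0.36 to 0.98 TPM in KO, 0.02 to 0.18 TPM in WT replicates 2, 3 and 4 and 0.42 to 0.82 TPM in the other 4 WT libraries.

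Nos2, which uses the same amino acid as Arg1, was listed at 0.01 to 0.13 TPM in KO, at 0.96, 0.42 and 0.67 TPM in WT replicates 2, 3 and 4 and at 0 to 0.03 TPM in the other 4 WT libraries. All 3 libraries with the least Arg1 had the most Nos2, although none reached 1 TPM.

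Set by mean level, the order of the genes differed between the sets of libraries. In KO, Tgm2 (235 TPM), Chil3 (234 TPM), Arg1 (139 TPM) and Stat6 (123 TPM) led, and neighbours in this order overlapped. In WT replicates 2, 3 and 4, Tgm2 (120 TPM) and Stat6 (83.0 TPM) led without overlap, and Arg1 (5.20 TPM) and Chil3 (2.35 TPM) came sixth and seventh. In WT replicates 1, 5, 6 and 7, Arg1 (533 TPM) led Tgm2 (188 TPM) without overlap, followed by Stat6 (120 TPM) and Chil3 (119 TPM), which overlapped.

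Arg1 and Chil3 stood much lower in WT replicates 2, 3 and 4 than in the other 4 WT libraries. These 3 libraries were singled out from their measured values, so this comparison has no test. Arg1 averaged 5.20 ± 3.21 TPM in WT replicates 2, 3 and 4 (SD, n = 3) and 533 ± 156 TPM in the other 4 (SD, n = 4), a 103-fold higher mean in the other 4. Its log2 difference, WT replicates 2, 3 and 4 minus the others, was -6.52, the most negative of the 11152 genes with a pseudocount of 1 and the fifth most negative with 0.1. Chil3 was next among the 10 genes, with a log2 difference of -5.17. Of the 7 tested genes, 5 lay wholly below the other 4 WT libraries (Arg1, Chil3, Tgm2, Stat6 and Il4ra), against 28.3% of all genes tested. Clec10a lay wholly above, as did 29.9% of all genes, and Mrc1 overlapped. The log2 difference was -0.65 for Tgm2, -0.52 for Stat6, -0.36 for Il4ra, -0.20 for Mrc1 and 1.26 for Clec10a. The median over the 7 genes was -0.52, beside 0.0036 over all genes tested. These libraries also held the high fibroblast and smooth muscle markers given above, and the part of such cells in these levels was not tested.

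**Figure D4:**
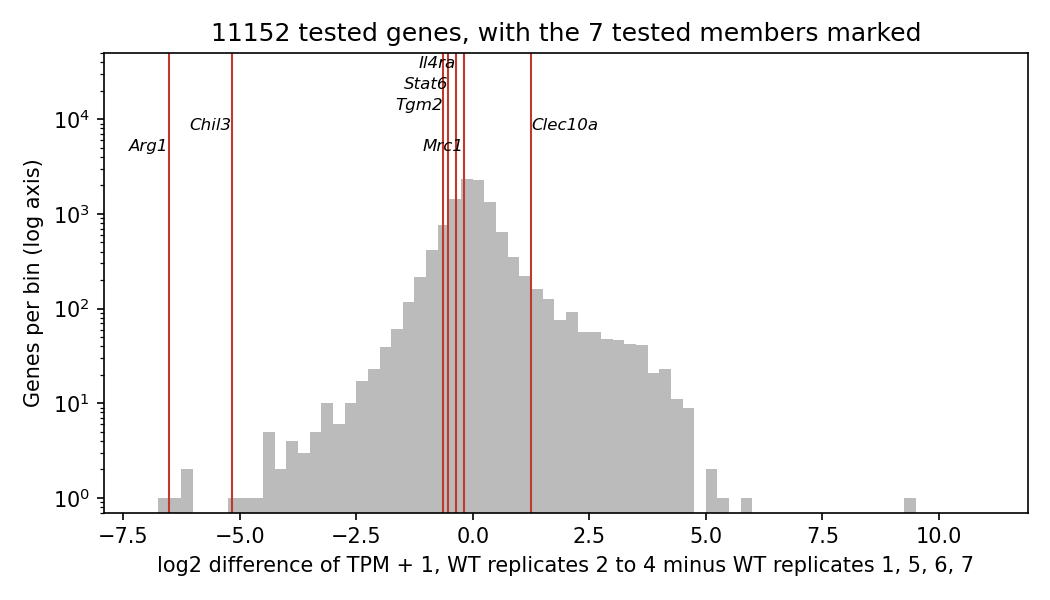
Histogram of the log2 difference of TPM + 1, WT replicates 2, 3 and 4 minus WT replicates 1, 5, 6 and 7, over 11152 tested genes (log count axis). Red lines mark the 7 tested members. Arg1 at -6.52 and Chil3 at -5.17 lie at the low edge, and Clec10a at 1.26 lies above the centre.

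The genes whose profile was most like that of Arg1 were found by the root mean square difference between centred log2(TPM + 1) values. Over 12 libraries a flat gene would score 2.56, and the closest of 9026 genes were Ch25h (0.837), Slco2b1 (0.972), Fcrls (1.08), Gatm (1.10) and F13a1 (1.17). Ch25h makes 25-hydroxycholesterol, and Gatm takes arginine for creatine synthesis. Gatm was at 240 to 263 TPM in KO, 13.1 to 18.9 TPM in WT replicates 2, 3 and 4 and 282 to 403 TPM in the other 4 WT libraries, the same order of groups as for Arg1. Chil3 ranked 30 by this measure (1.61). Over the 9 libraries a flat gene would score 1.18, and the closest of 8773 genes were Lyz2 (0.584), Fcgr2b (0.728), Ctsk (0.741), Gsta3 (0.757) and Fn1 (0.766). Lyz2 encodes the main lysozyme of macrophages and Fcgr2b an inhibitory Fc receptor. This likeness covers only the 9 libraries. In WT replicates 2, 3 and 4, Gsta3 averaged 278 TPM and Fn1 789 TPM, against 11.4 and 262 TPM in the other 4 WT libraries, the reverse of Arg1. Fcgr2b was lower there, at 29.8 against 104 TPM, and the ranges of Ctsk and Lyz2 overlapped. Whether the likeness of Lyz2 to Arg1 reflects a shared reason was not tested. Over the 9 libraries Mrc1 ranked 189 (1.08) and Il4ra 218 (1.09). Stat6 ranked 4436 (1.21), Tgm2 8296 (1.33) and Chil3 8753 (1.80), each farther from Arg1 than a flat gene.

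Other genes of the same biology were read from lists. Of 14 tested genes of interleukin 4 and 13 receptor signalling, Il4ra and Stat6 included, 0 passed in limma with either set (4 had an unadjusted p under 0.05 with 12 libraries and 5 with 9, beside 17.5% and 18.9% of all genes). The median log2 fold change of the list was 0.05 with 9 libraries and 0.16 with 12, beside 0.05 and 0.04 for all genes tested. Ptpn6, a phosphatase that restrains cytokine receptors, averaged 229 ± 23.8 TPM in KO (SD, n = 5) and 203 ± 24.1 TPM in the other 4 WT libraries (SD, n = 4). Of 20 tested alternative activation genes outside the 10, 2 fell with 9 libraries, beside 0.717% of all genes, and 0 with 12, with medians of -0.02 and 0.23. An unadjusted p under 0.05 was reached by 3 of the 20 with 12 libraries and by 5 with 9, beside 17.5% and 18.9% of all genes. With 9 libraries Ch25h fell to 74.2 ± 15.3 TPM in KO (SD, n = 5), against 162 ± 41.1 TPM in WT (SD, n = 4), and limma gave an adjusted p of 0.0193. F13a1, the coagulation factor XIII subunit of macrophages, fell to 95.2 ± 21.1 TPM in KO (SD, n = 5), against 159 ± 9.19 TPM in WT (SD, n = 4), for which limma gave an adjusted p of 0.0296. Leaving out a further library kept the call in 5 of 9 fits for Ch25h and 3 of 9 for F13a1, and F13a1 also lost its call with a term for submission numbers (limma adjusted p of 0.0585). Like Arg1, both had positive log2 fold changes with 12 libraries (1.52 and 0.83), which limma did not call.

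Around arginine itself, 2 of 26 tested genes fell with 9 libraries, beside 0.717% of all genes, and 0 with 12, with medians of -0.04 and -0.02. An unadjusted p under 0.05 was reached by 6 of the 26 with 12 libraries and by 8 with 9, beside 17.5% and 18.9% of all genes. Ddah2, of the family that degrades methylated arginines, fell by 0.78 on the log2 scale with 9 libraries (limma adjusted p of 0.0294). Srm, the spermidine synthase gene downstream of ornithine, fell by 0.21 (limma adjusted p of 0.0352). Leaving out a further library kept the call in 4 of 9 fits for Ddah2 and 3 of 9 for Srm, and Srm also lost its call with a term for submission numbers (limma adjusted p of 0.0722). The second arginase gene Arg2 was at 0.15 to 0.53 TPM in KO, 1.73 to 2.53 TPM in WT replicates 2, 3 and 4 and 0.19 to 0.34 TPM in the other 4 WT libraries, which is the reverse of Arg1 between WT libraries. Odc1, which turns ornithine into putrescine, was at 107 to 115 TPM in KO, 184 to 256 TPM in WT replicates 2, 3 and 4 and 103 to 112 TPM in the other 4 WT libraries.

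Among 17 tested genes of classical activation, 19 transcription factors tied to Arg1 (Stat6 included) and 10 C-type lectin relatives, 0 passed in limma with either set. At an unadjusted p under 0.05 there were 2, 5 and 4 with 9 libraries, and 4, 2 and 2 with 12, beside 18.9% and 17.5% of all genes. Their median log2 fold changes were -0.05, -0.07 and -0.08 with 9 libraries and -0.34, 0.08 and -0.07 with 12. Irf5 and Cybb, of the classical list, averaged 193 ± 11.8 and 94.9 ± 4.25 TPM in KO (SD, n = 5) and 201 ± 24.3 and 90.3 ± 15.8 TPM in the other 4 WT libraries (SD, n = 4). Spi1, which encodes the macrophage factor PU.1, averaged 330 ± 16.8 TPM in KO (SD, n = 5) and 347 ± 32.4 TPM in the other 4 WT libraries (SD, n = 4), and Atf4 averaged 270.3 ± 26.1 TPM in KO and 288 ± 13.1 TPM in those WT libraries. Among the lectins, Clec4d averaged 385 ± 29.6 TPM in KO (SD, n = 5) and 469 ± 30.4 TPM in the other 4 WT libraries (SD, n = 4), just short of a call (limma adjusted p of 0.0505). Clec4n (Dectin-2) was at 48.8 to 69.1 TPM in KO, 316 to 396 TPM in WT replicates 2, 3 and 4 and 62.0 to 64.8 TPM in the other 4 WT libraries.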

How the data were processed

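Macrophage RNA from 12 libraries was sequenced as paired reads of 51 bases, on average 30000000 pairs per library, per the labels' protocols. Salmon 1.2.0, bcl2fastq and mm10 are named in the submitters' processing notes. No annotation release, gene summing or strand setting is stated in them. The authors deposited values for 23438 genes, read here as TPM because Salmon is named and each library sums to 940127 to 947987. No header or label names the unit. TPM keeps no depth, so no counting interval was computed. Symbols and coordinates came from GENCODE M21 (mm10), and promoter sequences from RefSeq (GRCm38.p6).

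The main test was limma-trend (limma 3.58.1, R 4.3.3) on log2(TPM + 1), a pseudocount of 1, for the 11152 genes that reached 1 TPM in 5 or more libraries, with genotype as the term and Benjamini-Hochberg adjustment over all of them (threshold 0.05). Fold changes are on that scale and understate changes of low genes. The alternatives were median-ratio scaling, a pseudocount of 0.1, a minimum of 5 TPM, no filter, library weights, a block for submission numbers (1 to 5 against 6 to 12, which no label names as a batch), a replicate block and leaving out each library. Library weights were estimated by limma from how far each library strayed from the fit, with no outside measure of quality. The members, lists, library sets and alternatives were chosen with earlier results of these data known. Named genes are the 10 members, Smarcd1, up to 3 called genes per list and direction (otherwise the 2 of highest level) and the 5 nearest to Arg1. Arg2, Odc1, Chil4, Il4, Il13, Marco and Cd14 were added after their values were seen. A few listed genes were not analysed here. No libraries held identical values, and no column was left without a library.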

Additional observations from a re-analysis of the deposited data

Results flagged for a closer look

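Arg1 in KO replicate 5, at 315 TPM, stood far above the other 4 KO libraries, and its gap to the nearest of them was 0.982 of the whole KO range (Dixon's critical value for 5 libraries is 0.71). It was the 1 library marked in this way among 14 combinations of a member and a genotype, and chance marks about 1 in 20. KO replicate 5 also had the lowest Chil3 of the KO libraries, at 83.2 TPM, the lowest sum of neutrophil markers, at 1005 TPM, and the highest sum of fibroblast and smooth muscle markers, at 606 TPM. The part of these in its Arg1 level was not tested. Without it, the 9-library log2 fold change of Arg1 was -2.44, with a limma adjusted p of 0.00101.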

How the results depend on the processing

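With 12 libraries, where 14 genes and 0 of the 7 tested members were called, the number of genes was 4 with median-ratio scaling, 3 with a submission block, 759 with library weights and 260 without WT replicates 2, 3 and 4; leaving out 1 library gave 2 to 36 genes and 0 members. Library weights and the removal of those 3 libraries each gave 2 called members (Il4ra and Tgm2 in the first, Arg1 and Tgm2 in the second) and turned Arg1 round, to -1.97 and -2.09 from 0.70. Under the same settings Ch25h was at -0.78 and -1.11, against 1.52 with 12 libraries, and F13a1 at -0.64 and -0.76, against 0.83. Leaving out 1 library put Arg1 between -0.0486 (without WT replicate 4) and 1.26, and Mrc1 between -0.20 and 0.0943. No label pairs same-numbered libraries, and their deviations from the genotype means correlated from -0.224 to 0.222. The WT means include WT replicates 2, 3 and 4, which stood apart, so these correlations cannot settle whether libraries were paired. A replicate block on 10 libraries left 0 genes (3706 at an unadjusted p under 0.05), against 13 without it, and Arg1 was at 1.73 with and without the block.

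With 9 libraries, where 260 genes and 2 members were called, there were 167 genes and 0 members with no filter, 132 and 1 with a submission block, 758 genes and 3 members with library weights (Arg1, Tgm2 and Il4ra), 1 member with median-ratio scaling, and 14 genes and 0 members with all 12 libraries. Arg1 kept -2.09 with no filter but missed the threshold (limma adjusted p of 0.0635), as did Ch25h, F13a1, Ddah2 and Srm (0.0524 to 0.074), and was at 0.70 with all 12 libraries. Leaving out 1 library gave 51 to 462 genes, 0 to 2 members, and -2.44 to -1.91 for Arg1, -0.25 to 0.00997 for Mrc1 and -0.13 to 0.0341 for Clec10a. Stat6 was at -0.0155 with median-ratio scaling. A pseudocount of 0.1 or a minimum of 5 TPM left Arg1 called (limma adjusted p of 0.0237 and 0.0205). The causes were not tested. The labels give only an average depth and the read count of each library is unknown, so low values such as those of Retnla, Mgl2 and Nos2 have no detection limit.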
